A study of Mus musculus with 18 samples.

Results

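Myc and 38 genes of ribosome biogenesis were examined in cultured mouse natural killer (NK) cells. The genes were chosen by name, by their known function, with earlier results of these data known. They were Myc itself, 11 genes for ribosomal DNA transcription and nucleolar proteins, 3 genes of box C/D small nucleolar ribonucleoproteins (snoRNPs), 4 genes of box H/ACA snoRNPs, 11 genes of the small subunit processome and 9 genes of large subunit assembly. Each symbol was matched to 1 Ensembl gene, and all 39 of the 39 passed the filter on low counts, out of 56953 gene identifiers in the tables and 16747 tested. RNA was sequenced from NK cells of mouse spleen. The cells had spent 7 days in hypoxia (1% O2) in medium that held 1700 U/ml interleukin 2 (IL-2). In Hif1a KO cells the genotype was Ncr1 iCre with Hif1a fl/fl, and Hif1a flox cells carried Hif1a fl/fl alone. Ahr KO cells were Ncr1 iCre with Ahr fl/fl, and their Ahr flox cells had the floxed Ahr alleles without iCre. Hif1a Ahr KO cells carried Ncr1 iCre with both floxed genes, and Hif1a Ahr flox cells the same floxed alleles without iCre. Each of the 6 groups had 3 biological replicates, 18 libraries in all, and every group was hypoxic and IL-2 treated. Ncr1 iCre is a Cre recombinase driven by Ncr1, the gene of the NK receptor NKp46. No group carried iCre without a floxed gene, so an effect of iCre itself and an effect of the deletion cannot be told apart.

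Ribosomes are built in the nucleolus. RNA polymerase I transcribes ribosomal DNA into a long precursor RNA, snoRNPs guide its methylation and pseudouridylation, and large assemblies cut it and fold it into the small and the large subunit. The transcription factor Myc, with its partner Max, binds E-box sequences and is a known activator of many of these genes. In lymphocytes, Myc and ribosome production are known to rise as cells activate, grow and divide under cytokines such as IL-2. Hif1a encodes the subunit of HIF-1 that is degraded when oxygen is plentiful, and the protein of Ahr is a transcription factor that responds to aryl hydrocarbons. Both pair with Arnt.

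Library totals ran from 54420649 to 55732940 estimated counts. Levels are given as CPM, counts relative to library size with edgeR's TMM scaling factors. Changes are log2 KO minus flox with a standard error (SE), and a gene is called, and said to have risen or fallen, at a Benjamini-Hochberg adjusted p under 0.05 over all 16747 genes in edgeR's quasi-likelihood F test. Whole-gene counts of Hif1a were 147 to 211 CPM in Hif1a KO cells, against 56.5 to 64.9 CPM in Hif1a flox cells, and 170.4 to 220.0 CPM in Hif1a Ahr KO cells, against 58.2 to 62.4 CPM in Hif1a Ahr flox cells. Such counts can include exons outside the floxed part and do not check the deletion, and the same holds for Ahr, at 88.6 to 97.03 CPM in Ahr KO cells and 73.9 to 78.5 CPM in Ahr flox cells. Pgk1, a glycolytic enzyme gene known as a HIF-1 target, was at 574 to 665 CPM in Hif1a KO cells, against 3353 to 3934 CPM in Hif1a flox cells, and at 705 to 863 CPM in Hif1a Ahr KO cells, against 3279 to 3900 CPM in Hif1a Ahr flox cells. All 12 NK marker genes were present in every library, and the summed B cell or erythroid and platelet markers reached 1.22 CPM at most. In bulk RNA, fewer cells of a type and less RNA per cell cannot be told apart. Within groups, single libraries were low or high for most members at once. Replicate 1 was the lowest for 35 of 39 members in Ahr KO cells and for 39 of 39 in Ahr flox cells. In Hif1a Ahr flox cells replicate 3 was the highest for 38 and replicate 1 the lowest for 33, and in Hif1a flox cells replicate 3 was the lowest for 31. In Hif1a KO and Hif1a Ahr KO cells the same library was highest or lowest for at most 26. Counts of members in the Ahr and Hif1a Ahr lines are also given without such libraries.

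Per kilobase of exon, the level of the members spanned from 476 CPM for Npm1 to 3.66 CPM for Wdr12, averaged over the 18 libraries. The length was that of all annotated exons of a gene merged, which can far exceed the coding length. For Wdr12 it was 11955 bases, against 1269 coding bases. The order of the genes here therefore depends on the length used. Npm1 (nucleophosmin) and Ncl (nucleolin, 136 CPM per kilobase) are abundant nucleolar proteins that bind ribosomal RNA and histones. Npm1 has processed pseudogenes that can share its reads, so its level is uncertain. Myc ranked 9 of 39 at 49.45 CPM per kilobase. Among the snoRNP genes the highest were Nop10 at 81.3 and Nhp2 at 67.4 CPM per kilobase for box H/ACA, and Nop56 at 65.03 and Fbl at 43.5 for box C/D. In the processome, on this exon scale, Nop14 led at 26.2 CPM per kilobase and Wdr43 followed at 25.0. Merged exons held 2730 bases for Nop14 and 4775 for Wdr43, and coding sequences 2580 and 2031. In large subunit assembly Noc2l led at 74.2 and Pes1 followed at 44.0. The 39 genes together took 0.675 ± 0.0142% of counts in Hif1a KO cells and 0.671 ± 0.0466% in Hif1a flox cells (SD, n = 3 each). That share was 0.640 ± 0.0229% in Ahr KO cells and 0.627 ± 0.0343% in Ahr flox cells, and 0.719 ± 0.0318% in Hif1a Ahr KO cells and 0.707 ± 0.0740% in Hif1a Ahr flox cells. Each pair of shares differed by less than the SD of its flox group.

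The spread of the 6 group means was small. Across the members, the highest group mean was 1.06 times the lowest for Tcof1 and 1.58 times for Ddx21, with the other genes between. Hif1a KO was the lowest of the 6 groups for 21 members and Ahr flox for 15, while Hif1a Ahr KO was the highest for 20.

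Promoters of 32 of the 39 members were found in the RefSeq table for GRCm38.p6, each running from 250 bases before to 50 bases after the annotated start. The E-box CACGTG, a palindrome that reads the same on both strands, lay in 9 of the 32 (28.1%), against 8.09% of all 27025 genes with a promoter and 11.2% of the 11034 of them that were tested. ACGTG, a form of the core of the HIF-1 site, searched on both strands, lay in 12 of the 32 (37.5%), against 21.8% and 28.5%. CACGTG contains ACGTG on both strands, so these counts overlap. GCGTG, the core of the aryl hydrocarbon receptor site, lay on either strand in 26 of the 32 (81.2%), against 35.2% and 53.3%. GCGTG is also a form of the HIF-1 core, so its matches cannot be assigned to either factor. A match is a run of letters, not a measured binding site. CACGTG lay in 3 of the 9 members with a promoter that fell in Hif1a KO cells (33.3%), near the 28.1% of all 32. Rrn3, Nop2, Utp18, Utp20, Wdr43 and Utp4 also had it and were not called there. The 5 sequences that follow are examples. They show the E-box in 3 genes that fell in Hif1a KO cells (Mybbp1a, Pes1 and Imp4), a gene that fell with no E-box in the window (Polr1b) and the gene that rose most among the members in Hif1a Ahr KO cells (Heatr1). They are on the plus strand of GRCm38.p6, 5′ to 3′, with CACGTG in capitals. Counted from the start, the capitals begin at +41 in Mybbp1a, +3 in Pes1 and -121 in Imp4.
Mybbp1a (chr11:72441077-72441376): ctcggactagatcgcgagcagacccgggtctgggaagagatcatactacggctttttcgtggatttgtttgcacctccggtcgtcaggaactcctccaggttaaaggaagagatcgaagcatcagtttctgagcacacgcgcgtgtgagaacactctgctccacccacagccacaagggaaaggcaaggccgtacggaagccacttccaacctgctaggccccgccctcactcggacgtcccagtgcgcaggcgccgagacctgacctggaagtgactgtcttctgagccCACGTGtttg
Pes1 (chr11:3963725-3964024): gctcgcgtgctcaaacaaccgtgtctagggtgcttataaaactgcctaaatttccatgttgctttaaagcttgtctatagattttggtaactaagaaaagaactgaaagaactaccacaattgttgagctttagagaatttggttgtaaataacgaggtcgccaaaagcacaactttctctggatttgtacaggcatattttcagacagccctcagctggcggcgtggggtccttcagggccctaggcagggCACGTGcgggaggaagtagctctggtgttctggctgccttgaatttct
Imp4 (chr1:34439579-34439878): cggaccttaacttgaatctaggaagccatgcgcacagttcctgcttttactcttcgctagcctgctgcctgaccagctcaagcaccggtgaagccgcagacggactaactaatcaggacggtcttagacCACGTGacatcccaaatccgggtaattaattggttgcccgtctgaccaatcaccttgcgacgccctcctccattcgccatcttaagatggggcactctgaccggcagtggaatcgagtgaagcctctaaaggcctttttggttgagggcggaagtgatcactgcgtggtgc
Polr1b (chr2:129100746-129101045): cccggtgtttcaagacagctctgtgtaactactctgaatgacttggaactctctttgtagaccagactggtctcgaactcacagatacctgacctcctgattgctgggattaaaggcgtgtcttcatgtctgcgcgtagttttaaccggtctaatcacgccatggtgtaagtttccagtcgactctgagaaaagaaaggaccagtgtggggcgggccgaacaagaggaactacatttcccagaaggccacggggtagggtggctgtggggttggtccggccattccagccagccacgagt
Heatr1 (chr13:12395125-12395424): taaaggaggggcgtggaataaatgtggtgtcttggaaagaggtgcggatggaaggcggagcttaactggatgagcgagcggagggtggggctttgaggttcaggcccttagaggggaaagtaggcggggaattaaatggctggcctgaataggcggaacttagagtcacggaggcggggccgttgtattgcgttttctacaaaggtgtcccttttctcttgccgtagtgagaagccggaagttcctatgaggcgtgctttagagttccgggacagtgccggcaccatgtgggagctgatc
These coordinates are of the older mouse build, not of GRCm39, on which the counts were made.

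Myc (ENSMUSG00000022346, chromosome 15) was not called in any of the 3 lines by the main fit, which did not pair replicates. It had 144, 147 and 117 CPM in Hif1a KO cells, against 145, 142 and 126 CPM in Hif1a flox cells. The groups overlapped, with a log2 change of -0.014 ± 0.10, adjusted p = 0.933 and a 95% interval of -0.23 to 0.21. In the Ahr line, Myc had 124, 152 and 126.5 CPM in Ahr KO cells, against 107, 124 and 120.4 CPM in Ahr flox cells (0.20 ± 0.10, adjusted p = 0.295, interval -0.026 to 0.42). The lowest Ahr KO library lay level with the highest Ahr flox library. The replicate numbers were taken as pairs in this line because same-numbered libraries deviated together, a pairing that the labels do not state. With the number as a block the Ahr change of Myc was 0.19 with an adjusted p of 0.0393. In the Hif1a Ahr line, Myc had 149.7, 129 and 159 CPM in Hif1a Ahr KO cells, against 142, 126 and 138 CPM in Hif1a Ahr flox cells (0.11 ± 0.10, adjusted p = 0.47, interval -0.11 to 0.33), and these groups overlapped too. By group mean, Myc ran from Hif1a Ahr KO cells (146 ± 15.1 CPM; SD, n = 3 here and below) through Hif1a flox (137.5 ± 10.1), Hif1a KO (136 ± 16.5), Hif1a Ahr flox (135 ± 8.14) and Ahr KO (134 ± 15.2) down to Ahr flox cells (117 ± 9.33). No neighbours in that order differed by more than the sum of their SDs.

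The Myc paralog Mycn and the Myc antagonist Mxi1 fell several fold in Hif1a KO and in Hif1a Ahr KO cells. Mycn had 17.0, 13.5 and 14.1 CPM in Hif1a KO cells, against 77.3, 72.3 and 79.55 CPM in Hif1a flox cells (-2.36 ± 0.14, adjusted p = 1.29e-09). In the Hif1a Ahr line Mycn had 22.9, 19.65 and 22.7 CPM in Hif1a Ahr KO cells, against 64.4, 78.7 and 78.6 CPM in Hif1a Ahr flox cells (-1.76 ± 0.13, adjusted p = 3.19e-08). No KO library reached the level of any flox library in either line. Mxi1, whose protein competes for Max and whose gene is a known HIF-1 target in human cells, averaged 11.6 ± 1.23 CPM in Hif1a KO cells and 57.1 ± 9.37 CPM in Hif1a flox cells (-2.30 ± 0.14, adjusted p = 3.4e-09). It averaged 9.40 ± 0.532 CPM in Hif1a Ahr KO cells and 49.15 ± 10.2 CPM in Hif1a Ahr flox cells (-2.39 ± 0.14, adjusted p = 2.64e-09), while in the Ahr line it had 58.6 ± 5.44 CPM in Ahr KO cells and 57 ± 2.05 CPM in Ahr flox cells (0.040 ± 0.13, adjusted p = 0.912). Max, the shared partner of the family, averaged 90.7 ± 8.90 CPM in Hif1a Ahr KO cells and 121 ± 17.9 CPM in Hif1a Ahr flox cells and fell (-0.41 ± 0.095, adjusted p = 0.0028). It was not called in the other lines (-0.18 ± 0.095, adjusted p = 0.153 in the Hif1a line, -0.18 ± 0.095, adjusted p = 0.313 in the Ahr line).

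**Figure D1:**
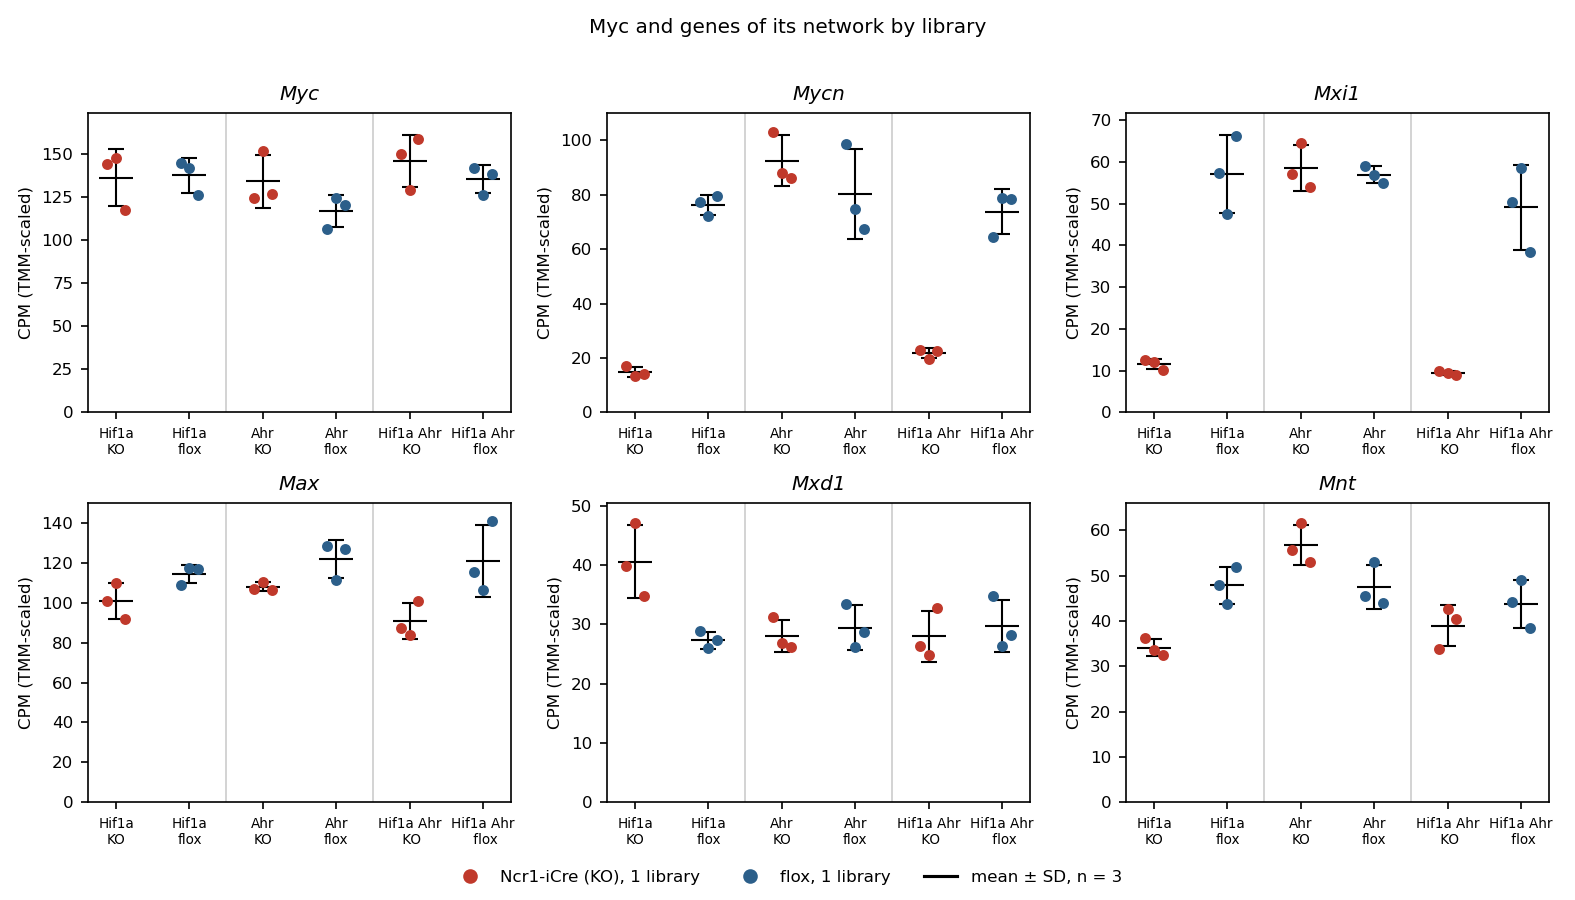
Level of Myc and 5 genes of its network in each library, in TMM-scaled CPM on linear axes from 0, with the 6 groups along the x axis; bars show mean and SD of 3 libraries. Myc lies between 107 and 159 CPM in all 18 libraries, while Mycn and Mxi1 sit far lower in Hif1a KO and Hif1a Ahr KO cells than in their flox groups.

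Of 19 listed Myc network genes, 17 were tested. In Hif1a KO cells 3 rose and 8 fell, against 17.6% and 17.8% of all genes tested. The 3 that rose encode Max-binding repressors of the Mxd family: Mxd1 (0.57 ± 0.13, adjusted p = 0.00274), Mxd3 (0.57 ± 0.13, adjusted p = 0.00197) and Mxd4 (0.34 ± 0.13, adjusted p = 0.0444). Mxi1, whose protein also competes for Max, was among the 8 that fell and changed by more, as given above. Mnt, a further Max-binding repressor, fell (-0.49 ± 0.10, adjusted p = 0.00111), as did Mlx (-0.27 ± 0.051, adjusted p = 0.000479), a Max-like factor, and Tfap4 (-0.50 ± 0.10, adjusted p = 0.00108), a known Myc target. In Hif1a Ahr KO cells none rose and 8 fell, against 14.8% and 16.5% of all genes tested. They included Mxd4 (-0.37 ± 0.13, adjusted p = 0.0351) and Ruvbl1 (-0.36 ± 0.089, adjusted p = 0.00498), an ATPase of chromatin and snoRNP assembly complexes. Mxd1 averaged 27.9 ± 4.22 CPM in Hif1a Ahr KO cells and 29.7 ± 4.42 CPM in Hif1a Ahr flox cells and was not called. Mnt averaged 38.9 ± 4.53 CPM in Hif1a Ahr KO cells and 43.9 ± 5.30 CPM in Hif1a Ahr flox cells and was not called either. In Ahr KO cells 1 of the 17 was called, Mxd3, which fell (-0.64 ± 0.13, adjusted p = 0.00561), against 2.14% of all genes tested rising and 4.78% falling. Scaled by library totals alone, the list had 4 rising and 6 falling in Hif1a KO cells, beside 4117 and 2155 of all 16747 genes. In Hif1a Ahr KO cells Mxd3 and Mxd4 were no longer called under that scaling. Without Hif1a Ahr flox replicate 3, 4 network genes fell in Hif1a Ahr KO cells, beside 2458 of 17171 genes tested.

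In Hif1a KO cells, ribosome biogenesis genes were lower more often than higher, by small amounts. Of the 39 members 1 rose and 11 fell, against 17.6% of all genes rising and 17.8% falling, so 2.56% and 28.2% of the members. The median change of the members was -0.13, against -0.0094 for all genes tested, and 34 of 39 lay below 0. The groups did not overlap for 1 member that was higher and 15 that were lower, against 24.8% and 25.1% of all genes. Large subunit assembly had the largest share, with 5 of 9 genes falling and all 9 below 0. The falls were between -0.46 for Mybbp1a and -0.23 for Ubtf on the log2 scale. Under library totals alone, which move the median of all genes by 0.101, 6 members fell, 2 rose and 21 of 39 lay below 0, with a members' median of -0.034 beside 0.091 for all genes. Of all 16747 genes, 2155 fell and 4117 rose under that scaling. Leaving out Hif1a flox replicate 1 gave 6 falls, beside 2409 of 17183 genes tested. With the replicate number as a block, 14 members fell and 1 rose, beside 3416 and 3398 of 16747 genes. The rise of Ddx21 was not called when replicate 3 of either group was left out. The calls of Mybbp1a, Noc2l, Nop16, Pes1 and Polr1b held in each of the 26 alternative settings.

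**Figure D2:**
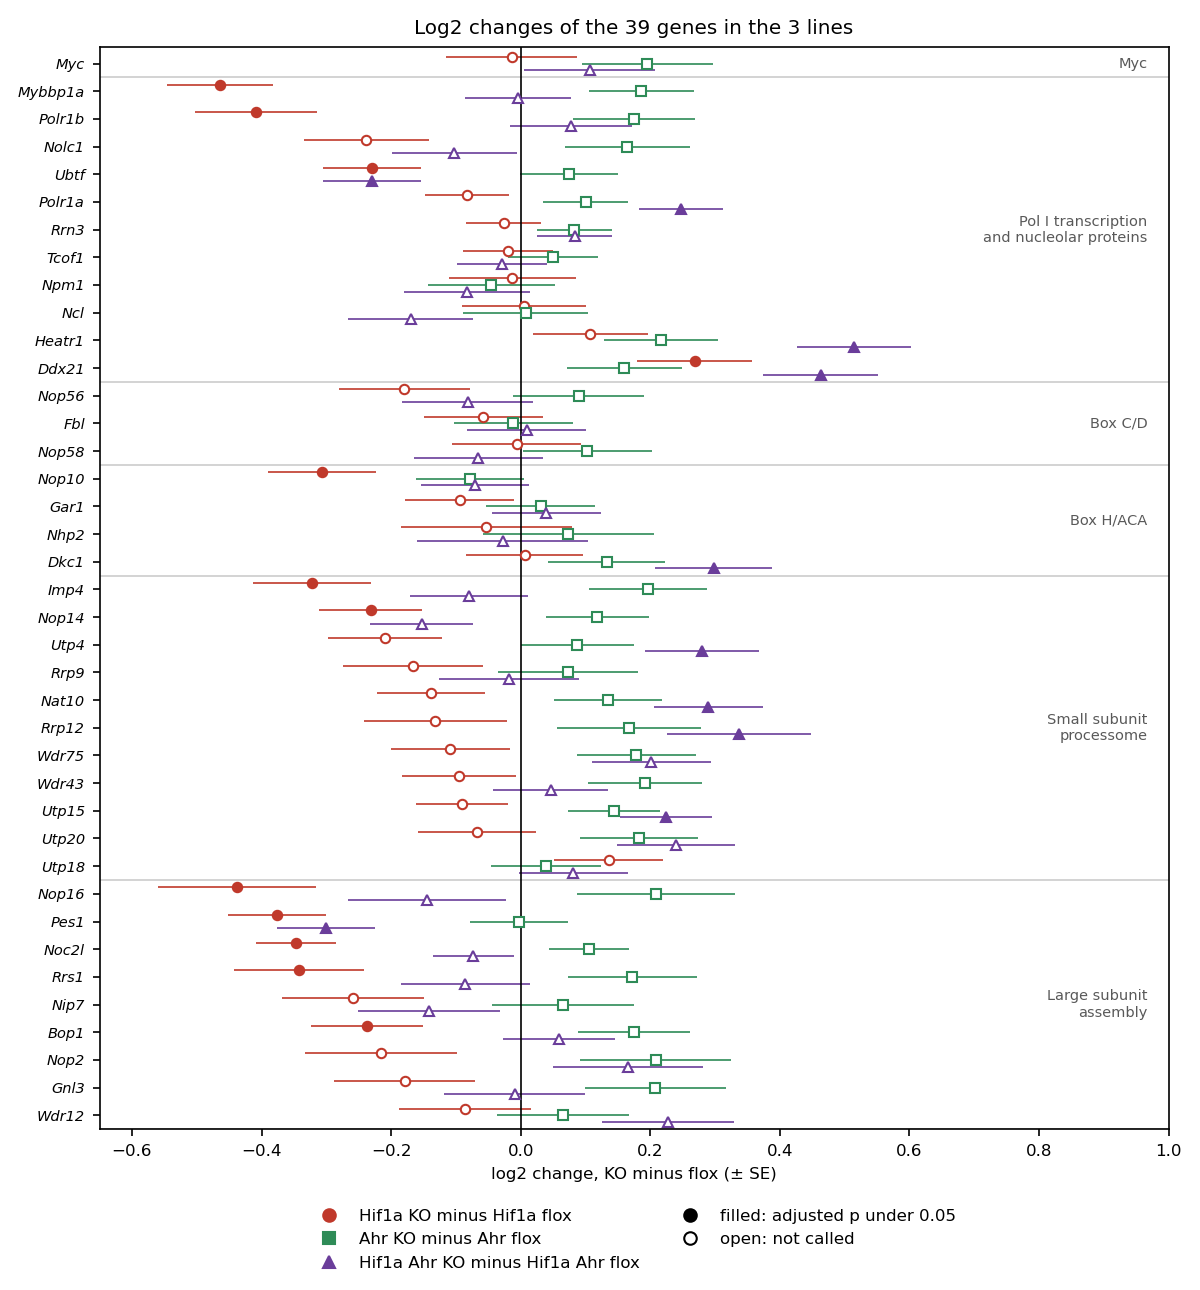
Log2 change, KO minus flox, of each of the 39 genes in each of the 3 lines, with SE as bars, grouped by role and sorted by the Hif1a change; filled marks have an adjusted p under 0.05. In the Hif1a line 34 of 39 genes lie left of 0, in the Ahr line 35 lie right of it with none filled, and in the Hif1a Ahr line 8 are filled on the right and 2 on the left.

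For ribosomal DNA transcription and nucleolar proteins, 3 of 11 genes fell and 1 rose in Hif1a KO cells. These are 27.3% and 9.09%, against 17.8% of all genes falling and 17.6% rising. Mybbp1a, a nucleolar Myb-binding protein with a part in precursor RNA processing, had 261, 246 and 279.8 CPM in Hif1a KO cells, against 359, 369 and 358 CPM in Hif1a flox cells (-0.46 ± 0.082, adjusted p = 0.000237). Polr1b, a core subunit of RNA polymerase I, had 51.6, 47.4 and 49.3 CPM in Hif1a KO cells, against 65.5, 68.8 and 62.6 CPM in Hif1a flox cells (-0.41 ± 0.094, adjusted p = 0.00243). In both genes every KO library lay below every flox library. Ubtf, the factor that keeps ribosomal DNA open, had 170.2, 169 and 163 CPM in Hif1a KO cells, against 196, 203 and 189 CPM in Hif1a flox cells (-0.23 ± 0.076, adjusted p = 0.0246), also without overlap. Ddx21, a nucleolar RNA helicase, had 300.5, 299.8 and 322 CPM in Hif1a KO cells, against 261, 274 and 230.3 CPM in Hif1a flox cells (0.27 ± 0.088, adjusted p = 0.0242). It was the member that rose, with the lowest KO library above the highest flox library. Nolc1, a nucleolar phosphoprotein that works with snoRNPs, changed by -0.24 ± 0.096, adjusted p = 0.0634, and its adjusted p was 0.0302 with the replicate block. Heatr1, a processome protein needed for ribosomal DNA transcription, changed by 0.11 ± 0.088, adjusted p = 0.378. Polr1a (the largest RNA polymerase I subunit), the initiation factor gene Rrn3, Tcof1 (treacle), Ncl and Npm1 had changes between -0.083 for Polr1a and 0.0051 for Ncl, none called. Npm1 had 1292, 1174 and 1426 CPM in Hif1a KO cells, against 1378, 1283 and 1266 CPM in Hif1a flox cells. Ncl had 1460, 1386 and 1465 CPM in Hif1a KO cells, against 1480, 1463 and 1352 CPM in Hif1a flox cells. The groups overlapped in both of these abundant genes.

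**Figure D3:**
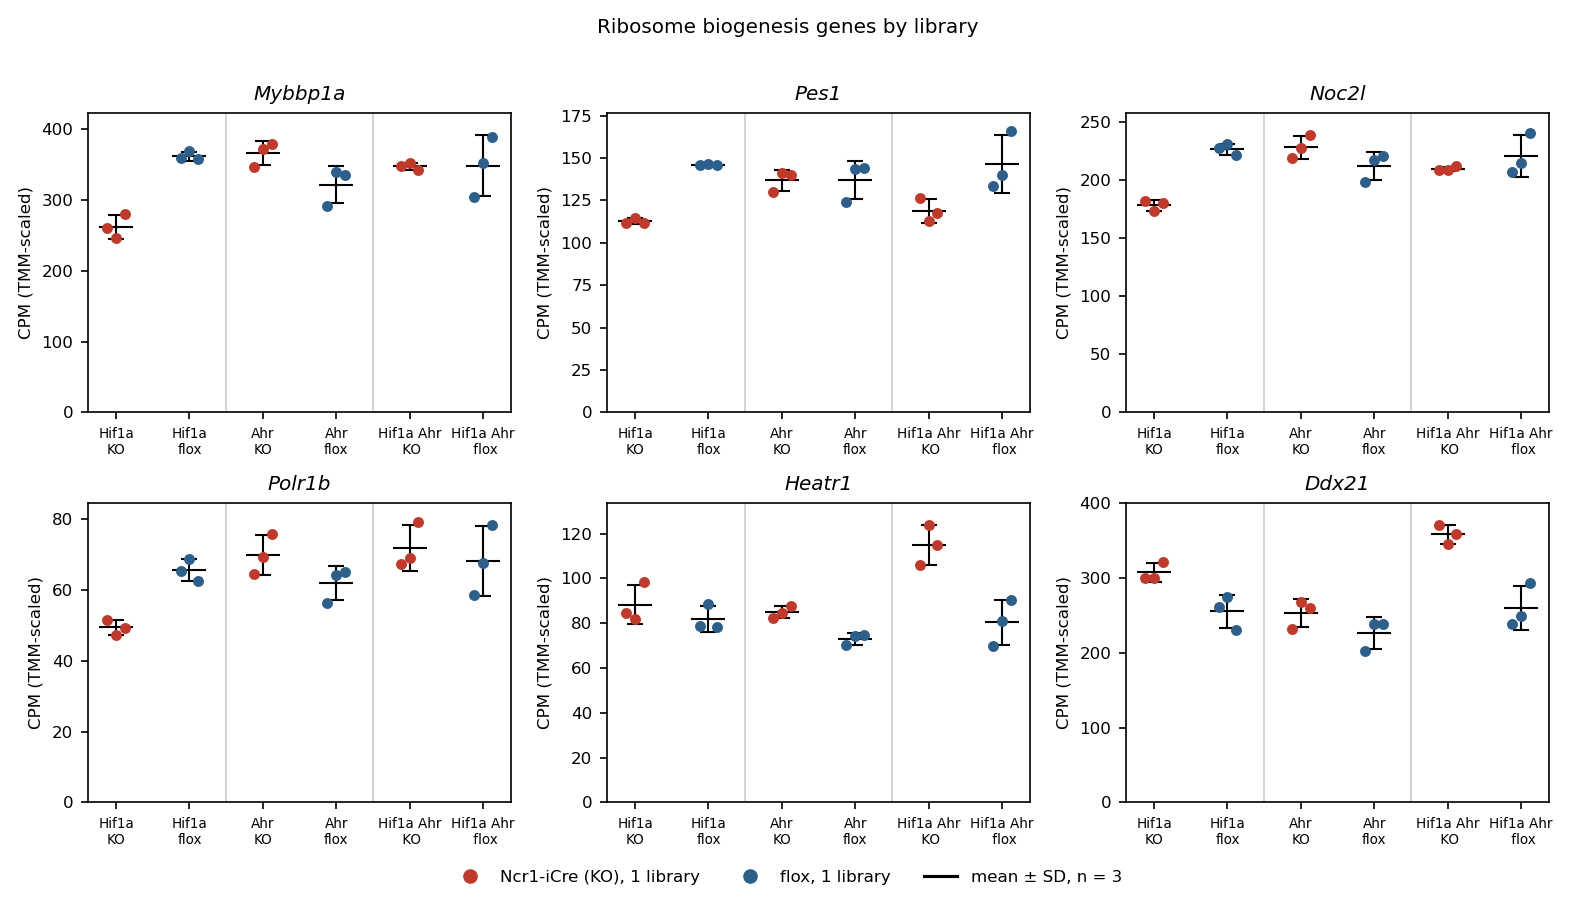
Level of 6 ribosome biogenesis genes in each library, in TMM-scaled CPM on linear axes from 0, with the 6 groups along the x axis; bars show mean and SD of 3 libraries. Mybbp1a, Noc2l and Polr1b are lowest in Hif1a KO cells, Pes1 is low in Hif1a KO and Hif1a Ahr KO cells, and Heatr1 and Ddx21 are highest in Hif1a Ahr KO cells.

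Among the box C/D genes, which encode the methylation guides' proteins, none of 3 was called in Hif1a KO cells. Of all genes, 17.6% rose and 17.8% fell there. Nop56 had 239, 233 and 234 CPM in Hif1a KO cells, against 288, 278 and 234 CPM in Hif1a flox cells, and Fbl had 180, 186 and 175.5 CPM in Hif1a KO cells, against 193, 189 and 181 CPM in Hif1a flox cells. The changes were -0.18 ± 0.10 for Nop56, -0.058 ± 0.092 for the methyltransferase Fbl and -0.0064 ± 0.099 for Nop58. Of the 4 box H/ACA genes, which act in pseudouridylation and in telomerase, Nop10 fell. It had 71.8, 76.6 and 73.3 CPM in Hif1a KO cells, against 90.85, 91.9 and 91.4 CPM in Hif1a flox cells (-0.31 ± 0.084, adjusted p = 0.00798), and the groups did not overlap. Dkc1, the pseudouridine synthase of the same particle, averaged 129 ± 11.1 CPM in Hif1a KO cells and 128 ± 10.3 CPM in Hif1a flox cells and was not called. Nhp2 had 74.0, 73.9 and 77.6 CPM in Hif1a KO cells, against 79.4, 80.5 and 74.1 CPM in Hif1a flox cells, with overlap (-0.053 ± 0.13, adjusted p = 0.792), and Gar1 changed by -0.094 ± 0.084, adjusted p = 0.424.

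In the small subunit processome, which cuts the precursor toward the small subunit, 2 of 11 genes fell in Hif1a KO cells and 10 lay below 0. The 2 are 18.2% of the 11, near the 17.8% of all genes that fell. With single libraries left out, 0 to 3 of the 11 fell. Imp4, a protein bound to the U3 snoRNP, had 53.45, 46.9 and 45.8 CPM in Hif1a KO cells, against 64.4, 58.95 and 59.4 CPM in Hif1a flox cells (-0.32 ± 0.091, adjusted p = 0.00993). Nop14 averaged 64.5 ± 2.76 CPM in Hif1a KO cells and 75.7 ± 2.46 CPM in Hif1a flox cells (-0.23 ± 0.080, adjusted p = 0.0305). Neither gene's groups overlapped. Utp4, also without overlap, averaged 70.1 ± 2.95 CPM in Hif1a KO cells and 81.1 ± 3.20 CPM in Hif1a flox cells (-0.21 ± 0.088, adjusted p = 0.0724; 0.00585 with the replicate block). Of the others, Utp18 was above 0 at 0.14 ± 0.084, and Nat10, Rrp9, Rrp12, Utp15, Utp20, Wdr43 and Wdr75 lay between -0.17 for Rrp9 and -0.068 for Utp20.

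Large subunit assembly genes fell in Hif1a KO cells in 5 of 9 cases (55.6%), against 17.8% of all genes. Without Hif1a flox replicate 1, and under library totals alone, 3 of 9 fell, as the calls of Bop1 and Rrs1 were lost. Of all genes, 2409 of 17183 and 2155 of 16747 fell in these settings in turn. Pes1 and Bop1 encode partners in a complex that matures the large subunit RNAs. Pes1 had 112, 115 and 111 CPM in Hif1a KO cells, against 146, 147 and 146 CPM in Hif1a flox cells (-0.38 ± 0.076, adjusted p = 0.000829). The 3 KO libraries lay within a few CPM of each other, as did the 3 flox libraries. Bop1 averaged 79.8 ± 3.45 CPM in Hif1a KO cells and 94.0 ± 3.99 CPM in Hif1a flox cells (-0.24 ± 0.087, adjusted p = 0.0412), a call kept in 17 of 26 alternative settings. The third partner, Wdr12, changed by -0.086 ± 0.10, adjusted p = 0.56 and was not called. Noc2l, a nucleolar protein that also binds histones and p53, had 182, 173 and 180.3 CPM in Hif1a KO cells, against 228, 231 and 222 CPM in Hif1a flox cells (-0.35 ± 0.062, adjusted p = 0.00029). Nop16 had 47.5, 44.4 and 49.2 CPM in Hif1a KO cells, against 63.1, 67.1 and 61.0 CPM in Hif1a flox cells (-0.44 ± 0.12, adjusted p = 0.00982). Rrs1, which helps load the smallest ribosomal RNA, had 50.1, 48.35 and 48.05 CPM in Hif1a KO cells, against 64.8, 64.0 and 56.96 CPM in Hif1a flox cells (-0.34 ± 0.10, adjusted p = 0.0123). None of these groups overlapped. Nip7 had -0.26 ± 0.11, adjusted p = 0.0755, and 0.047 with the replicate block. The methyltransferase gene Nop2 and Gnl3 (nucleostemin) changed by -0.22 ± 0.12 and -0.18 ± 0.11, not called.

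Markers of cell types moved with these Hif1a changes. The 12 NK markers summed to 14900 to 16900 CPM in Hif1a KO cells and 21200 to 25700 CPM in Hif1a flox cells, with 5 rising and 5 falling. Gzmb, Il2rb and Prf1 made up most of that sum, at 13500, 3030 and 2770 CPM on average over the 18 libraries. The summed level of 10 T cell markers was 40.2 to 58.9 CPM in Hif1a KO cells and 102 to 142 CPM in Hif1a flox cells, with 4 of 10 falling, led by Cd3d and Cd3g. Cd3e was at 0.228 to 6.05 CPM over the 18 libraries, and Cd8b1 and Cd5 were at 0 in at least 1 library. Myeloid markers summed to 317 to 385 CPM in Hif1a KO cells and 194 to 232 CPM in Hif1a flox cells. Itgax, which NK cells also express, made up most of that sum (339 ± 39.1 CPM in Hif1a KO cells and 206 ± 21.6 CPM in Hif1a flox cells), while 6 of the 8 tested markers fell. The part of these markers in the ribosome biogenesis results was not tested.

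In Ahr KO cells no member was called in either direction by edgeR, against 2.14% of all genes rising and 4.78% falling. With the replicate number as a block, 1 member, Myc, was called higher. In that fit 1034 of 16747 genes rose and 1389 fell. The members still leaned upward, with 35 of 39 above 0 and a median of 0.12, against 0.0013 for all genes. For 11 members every Ahr KO library lay above every Ahr flox library, against 13.8% of all genes, and for none the reverse. Without Ahr flox replicate 1 these counts were 11 and 3, against 18.7% and 20.2% of all genes. That library was the lowest of its group for all 39 members, so leaving it out could not change the first count. Unadjusted p was under 0.05 for 4 members, and DESeq2 and limma voom called none. Without Ahr flox replicate 1, which was the lowest of its group for all 39 members, 28 of 39 lay above 0 and the median was 0.061. Without replicate 1 of both groups, an alternative chosen after seeing the data, 33 of 39 lay above 0, the median was 0.094 and no member was called by edgeR.

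Heatr1 had 82.3, 84.4 and 87.65 CPM in Ahr KO cells, against 70.1, 74.2 and 74.6 CPM in Ahr flox cells (0.22 ± 0.088, adjusted p = 0.163, interval 0.025 to 0.41). It had the smallest p of the members in this line, and its groups did not overlap. Mybbp1a had 347, 372 and 379 CPM in Ahr KO cells, against 291, 339 and 335 CPM in Ahr flox cells (0.19 ± 0.081, adjusted p = 0.199). Wdr43 had 117, 127 and 129 CPM in Ahr KO cells, against 95.8, 114 and 116 CPM in Ahr flox cells (0.19 ± 0.088, adjusted p = 0.227). Imp4, also of the processome, averaged 67.1 ± 5.63 CPM in Ahr KO cells and 58.6 ± 6.46 CPM in Ahr flox cells (0.20 ± 0.091, adjusted p = 0.227). All 11 processome genes lay above 0, between 0.039 for Utp18 and 0.20 for Imp4, and 9 of 11 without Ahr flox replicate 1. Ribosomal DNA transcription genes lay between -0.045 for Npm1 and 0.22 for Heatr1, and the box C/D and H/ACA genes between -0.078 for Nop10 and 0.13 for Dkc1. Of the large subunit genes, Nop16 (0.21 ± 0.12), Nop2 (0.21 ± 0.12) and Gnl3 (0.21 ± 0.11) had the largest values. Pes1 averaged 137 ± 6.16 CPM in Ahr KO cells and 137 ± 11.1 CPM in Ahr flox cells, a change of -0.0027 ± 0.076. The 95% intervals of single members lay between -0.26 and 0.47, so changes within those limits could have been missed. When the 6 Ahr libraries were fitted alone, Heatr1 (adjusted p = 0.0237) and Nop2 (adjusted p = 0.0278) were called. In that fit 703 of 15567 genes rose and 994 fell. T cell markers summed to 73.3 to 77.4 CPM in Ahr KO cells and 128 to 152 CPM in Ahr flox cells. Cd3g, Cd3d and Lat fell, while 6 of the 10 lay above 0 without being called, with a list median of 0.38. Their part was not tested.

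In Hif1a Ahr KO cells the members went both ways: 8 rose and 2 fell, against 14.8% and 16.5% of all genes tested. The genes that rose act in ribosomal DNA transcription, in the processome and in box H/ACA snoRNPs. The 2 that fell, Pes1 and Ubtf, had also fallen in Hif1a KO cells, and make up 18.2% of the 11 members that fell there. Ddx21 rose in both. The median of the members was 0.0092, beside -0.017 for all genes, with 20 above 0 and 19 below. The groups did not overlap for 5 members that were higher and 1 that was lower, against 17.6% and 19.6% of all genes. Leaving out Hif1a Ahr flox replicate 3 made these counts 17 and 1, against 23.9% and 25.3% of all genes. For the 38 members in which that library was the highest flox library, this could not lower the first count or change the second. The counts of calls depend on single libraries, and each is given beside the same count over all genes tested. Without Hif1a Ahr flox replicate 3, the highest of its group for 38 of 39 members, 13 rose, 1 fell, 33 of 39 lay above 0 and the median was 0.13. Of 17171 genes, 2386 rose and 2458 fell in that fit. Without Hif1a Ahr flox replicate 1 the count was 3 rising and 4 falling, beside 2226 and 2534 of 17140 genes. Without flox replicate 2 it was 3 rising, beside 2134 of 17181. Without Hif1a Ahr KO replicate 1 it was 4 falling, beside 2890 of 17170. Without KO replicate 2 it was 3 rising and 1 falling, beside 1829 and 1963 of 17149. Without KO replicate 3 it was 4 rising and 1 falling, beside 1984 and 2166 of 17153. Library totals alone gave 11 rising and 1 falling, beside 2836 and 2236 of 16747. The 6 libraries of the line fitted alone gave 2 rising and none falling, beside 1544 and 1556 of 15488. The same counts over all genes stand for the parts and lists below in these settings. Heatr1 and Ddx21 were called under each of the 26 alternative settings.

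Heatr1 had 106, 124 and 115 CPM in Hif1a Ahr KO cells, against 69.9, 81.1 and 90.1 CPM in Hif1a Ahr flox cells (0.51 ± 0.088, adjusted p = 0.000229), the largest change among the members in any line, 1.43-fold. Ddx21 had 370.3, 346 and 359 CPM in Hif1a Ahr KO cells, against 238, 249 and 293 CPM in Hif1a Ahr flox cells (0.46 ± 0.088, adjusted p = 0.000626). Polr1a had 83.2, 83.35 and 84.3 CPM in Hif1a Ahr KO cells, against 64.3, 70.4 and 76.7 CPM in Hif1a Ahr flox cells (0.25 ± 0.065, adjusted p = 0.00728). In these 3 genes the lowest KO library lay above the highest flox library. Ubtf averaged 167 ± 14.5 CPM in Hif1a Ahr KO cells and 195 ± 19.1 CPM in Hif1a Ahr flox cells (-0.23 ± 0.076, adjusted p = 0.0274), with 1 KO library above the lowest flox library. The Ubtf call was lost without Hif1a Ahr flox replicate 3, without Hif1a Ahr KO replicate 2 or 3, under library totals alone and with the 6 libraries of the line alone. Mybbp1a, which had fallen in Hif1a KO cells, averaged 348 ± 4.75 CPM in Hif1a Ahr KO cells and 349 ± 43.0 CPM in Hif1a Ahr flox cells and was not called. Polr1b averaged 71.95 ± 6.42 CPM in Hif1a Ahr KO cells and 68.2 ± 9.91 CPM in Hif1a Ahr flox cells and was not called. Of the others, Ncl (-0.17), Nolc1 (-0.10), Npm1 (-0.083), Tcof1 (-0.029) and Rrn3 (0.083) were not called.

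Of the snoRNP genes, Dkc1 rose, with 163, 166 and 156 CPM in Hif1a Ahr KO cells, against 119, 126 and 149 CPM in Hif1a Ahr flox cells (0.30 ± 0.091, adjusted p = 0.0179) and no overlap. Nop10, Nhp2, Gar1 and the 3 box C/D genes had changes between -0.082 for Nop56 and 0.039 for Gar1, none called. The Dkc1 call was lost without replicate 1 or 2 of Hif1a Ahr flox, without replicate 2 of Hif1a Ahr KO, and with the 6 libraries of the line alone. In the processome 4 of 11 genes rose (36.4%), against 14.8% of all genes. That count rests on single libraries: it was 7 without Hif1a Ahr flox replicate 3, and 0 by edgeR without replicate 1 or 2 of Hif1a Ahr flox, without replicate 2 or 3 of Hif1a Ahr KO, or with the 6 libraries of the line alone. Nat10, an enzyme that acetylates ribosomal RNA, had 99.7, 115 and 119 CPM in Hif1a Ahr KO cells, against 84.1, 87.3 and 101.5 CPM in Hif1a Ahr flox cells (0.29 ± 0.084, adjusted p = 0.0131). Utp4 had 87.3, 101 and 105 CPM in Hif1a Ahr KO cells, against 71.3, 80.3 and 90.1 CPM in Hif1a Ahr flox cells (0.28 ± 0.088, adjusted p = 0.0213). Utp15 had 60.0, 71.6 and 68.3 CPM in Hif1a Ahr KO cells, against 52.9, 56.6 and 61.5 CPM in Hif1a Ahr flox cells (0.22 ± 0.071, adjusted p = 0.0219). In each of these 3 genes Hif1a Ahr flox replicate 3 reached into the range of the KO libraries. Rrp12, a factor of late small subunit maturation in yeast, averaged 51.6 ± 2.37 CPM in Hif1a Ahr KO cells and 40.8 ± 8.73 CPM in Hif1a Ahr flox cells (0.34 ± 0.11, adjusted p = 0.0269). Utp20 changed by 0.24 ± 0.091, adjusted p = 0.0533, not called, though its groups did not overlap. The rest (Imp4, Nop14, Rrp9, Utp18, Wdr43 and Wdr75) lay between -0.15 for Nop14 and 0.20 for Wdr75, none called. Of the 9 large subunit genes, Pes1 fell, with 127, 113 and 117 CPM in Hif1a Ahr KO cells, against 133, 140.2 and 166 CPM in Hif1a Ahr flox cells (-0.30 ± 0.076, adjusted p = 0.00561) and no overlap. Its partners Bop1 and Wdr12 changed by 0.059 ± 0.087 for Bop1 and 0.23 ± 0.10, adjusted p = 0.0999 for Wdr12, not called. The other 6 lay between -0.14 for Nop16 and 0.17 for Nop2. With Hif1a Ahr flox replicate 3 left out, 2 large subunit genes rose, among them Nop2 (0.39, edgeR adjusted p = 0.000641), and 1 fell. T cell markers summed to 38.6 to 80.7 CPM in Hif1a Ahr KO cells and 157 to 176 CPM in Hif1a Ahr flox cells, and myeloid markers to 260 to 303 CPM in Hif1a Ahr KO cells and 150 to 224 CPM in Hif1a Ahr flox cells. Of the 8 myeloid markers tested, 1 rose (Itgax) and 6 fell, with a median of -3.09. Of the 10 T cell markers 4 fell and 5 lay above 0. Their part in these results was not tested.

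The KO effects of the lines were also set against each other, each with its own flox group. The Hif1a effect was below the Ahr effect for 11 members and above it for none at an adjusted p under 0.05, against 32.3% of all genes called in either direction. The 11 were Mybbp1a (-0.65 ± 0.12, adjusted p = 0.00031), Noc2l (-0.45 ± 0.088, adjusted p = 0.000687), Polr1b (-0.58 ± 0.13, adjusted p = 0.00256), Imp4 (-0.52 ± 0.13, adjusted p = 0.00461) and Nop16 (-0.65 ± 0.17, adjusted p = 0.0082), followed by Rrs1, Pes1, Bop1, Nop14, Nolc1 and Ubtf. The 11 are 28.2% of the members, near the share of all genes. Without Ahr flox replicate 1 there were 8. The calls of Imp4, Mybbp1a, Noc2l, Nop16, Polr1b and Rrs1 held in each of the 25 alternatives, and library totals alone left 6 in all.

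The Hif1a Ahr effect was above the Hif1a effect for 6 members and below it for none, against 9.63% of all genes called. They were Mybbp1a (0.46 ± 0.12, adjusted p = 0.0195), Utp4 (0.49 ± 0.12, adjusted p = 0.0204), Polr1b (0.49 ± 0.13, adjusted p = 0.0296), Nat10 (0.43 ± 0.12, adjusted p = 0.0307), Polr1a (0.33 ± 0.092, adjusted p = 0.0313) and Heatr1 (0.41 ± 0.12, adjusted p = 0.0473). Of these, Mybbp1a and Polr1b were called in Hif1a KO cells and Utp4, Nat10, Polr1a and Heatr1 in Hif1a Ahr KO cells. For Pes1 and Ubtf, which fell in both lines, the difference was 0.076 ± 0.11, adjusted p = 0.715 for Pes1 and -0.00074 ± 0.11, adjusted p = 0.998 for Ubtf. None of the 6 calls held in each alternative. No call was left without Hif1a Ahr flox replicate 1 or without Hif1a KO replicate 2, and 13 were made without Hif1a Ahr flox replicate 3. Without Hif1a Ahr KO replicate 3 there was 1, and without Hif1a Ahr KO replicate 2 or Hif1a flox replicate 1 or 2 there were 2. Without Hif1a KO replicate 1 there were 3. With the replicate block 11 members differed, though the numbers were not taken as pairs in the Hif1a Ahr line. Under library totals alone 2 members differed.

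**Figure D4:**
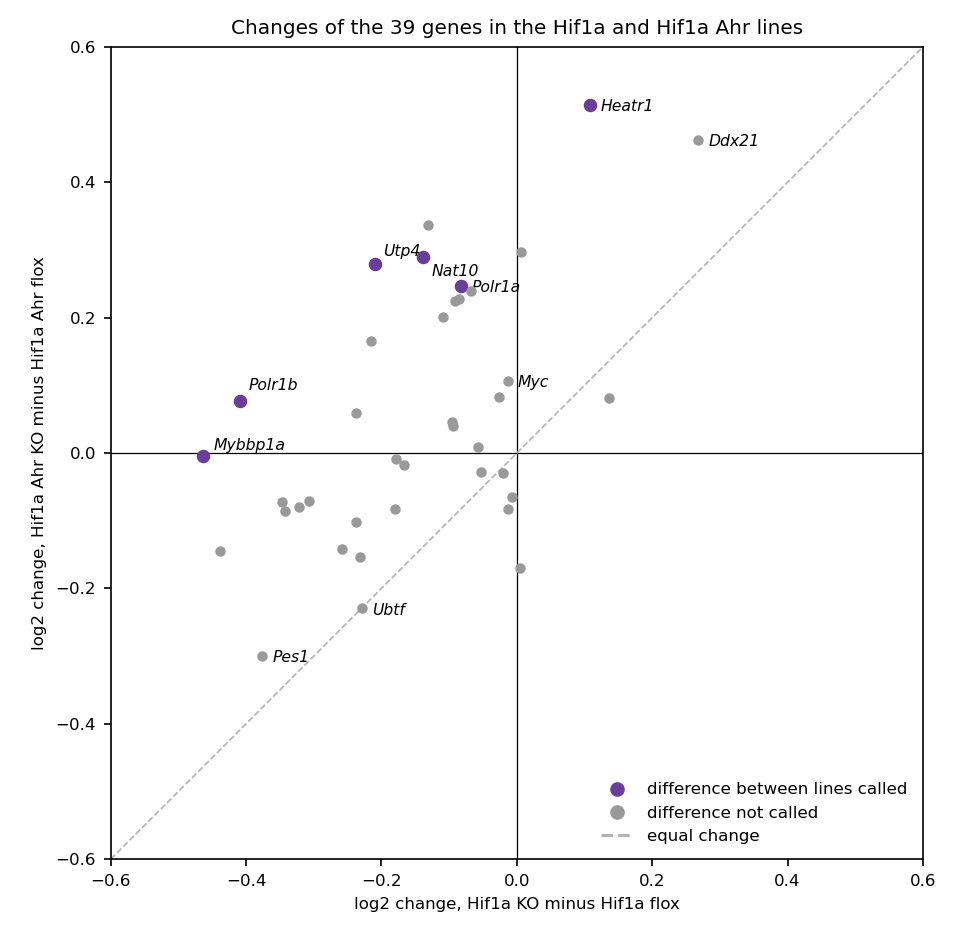
Log2 change of the 39 genes in the Hif1a line (x axis, Hif1a KO minus Hif1a flox) against the Hif1a Ahr line (y axis, Hif1a Ahr KO minus Hif1a Ahr flox), 1 point per gene; purple points differ between lines at an adjusted p under 0.05 and the dashed line marks equal change. Most genes lie above the dashed line, Pes1 and Ubtf lie near it low on the left, and Heatr1 and Ddx21 lie highest.

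The Hif1a Ahr effect and the Ahr effect differed for no member by edgeR, against 16.4% of all genes. Unadjusted p was under 0.05 for 6 members, and DESeq2 called 2. Without Hif1a Ahr flox replicate 1 or 3, or without Hif1a Ahr KO replicate 1, 3 members were called. Ubtf (-0.30 ± 0.11, adjusted p = 0.0599) and Pes1 (-0.30 ± 0.11, adjusted p = 0.0672) had the smallest p. Between the 3 flox groups no member was called, against 0.245% of all genes. Unadjusted p was under 0.05 for 1 of them, Utp18, and neither DESeq2 nor limma voom called any.

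Of 87 other ribosome biogenesis genes, 3 rose and 28 fell in Hif1a KO cells (3.45% and 32.2%, against 17.6% and 17.8% of all genes tested). The median of the 87 was -0.12, with 67 below 0. Among those that fell were Ddx54 (-0.44 ± 0.070, adjusted p = 0.000105), an RNA helicase, Wdr3 (-0.33 ± 0.060, adjusted p = 0.000393) and Nol10 (-0.41 ± 0.081, adjusted p = 0.000651), both of the processome, and Ppan (-0.60 ± 0.12, adjusted p = 0.000573) of large subunit assembly. Under library totals alone 8 rose, 15 fell and 45 of 87 lay below 0, while 4117 of all 16747 genes rose and 2155 fell. In Ahr KO cells 1 of the 87 was called, against 2.14% of all genes rising and 4.78% falling. It was Surf6 (0.24 ± 0.065, adjusted p = 0.0355), a nucleolar protein. That call was lost under library totals alone and without Ahr flox replicate 1. In Hif1a Ahr KO cells 12 rose and 12 fell (13.8% each), against 14.8% and 16.5% of all genes tested. Without Hif1a Ahr flox replicate 3, 21 of the 87 rose and 8 fell. Rrp1b (0.49 ± 0.081, adjusted p = 0.000167) and Bysl (0.46 ± 0.092, adjusted p = 0.000917), of nucleolar and small subunit maturation, rose. Utp3 (-0.52 ± 0.10, adjusted p = 0.000788) and Rrp36 (-0.38 ± 0.078, adjusted p = 0.00115), both of the processome, fell.

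Of 16 further RNA polymerase I machinery genes, 1 rose and 4 fell in Hif1a KO cells, none was called in Ahr KO cells, and 1 rose and 4 fell in Hif1a Ahr KO cells. In Hif1a KO and in Hif1a Ahr KO cells that is 6.25% rising and 25.0% falling. Of all genes tested, 17.6% rose and 17.8% fell in Hif1a KO cells. The shares were 2.14% and 4.78% in Ahr KO cells and 14.8% and 16.5% in Hif1a Ahr KO cells. Without Hif1a Ahr flox replicate 3, 1 of the 16 rose in Hif1a Ahr KO cells and none fell by edgeR. Polr1g, a subunit specific to RNA polymerase I, averaged 12.3 ± 1.06 CPM in Hif1a KO cells and 19.1 ± 1.03 CPM in Hif1a flox cells (-0.63 ± 0.11, adjusted p = 0.000295). It also fell in Hif1a Ahr KO cells (-0.34 ± 0.11, adjusted p = 0.0304). Polr2f, a subunit shared by the nuclear RNA polymerases, fell in both (-0.34 ± 0.080, adjusted p = 0.00239 in the Hif1a line and -0.29 ± 0.079, adjusted p = 0.01 in the Hif1a Ahr line). Polr1c and Polr1d, subunits shared by RNA polymerases I and III only, were not called in any line. Polr1c averaged 50.45 ± 3.28 CPM in Hif1a KO cells and 54.15 ± 3.55 CPM in Hif1a flox cells. Polr1d averaged 131 ± 5.54 CPM in Hif1a KO cells and 138 ± 3.29 CPM in Hif1a flox cells. Of the promoter factor subunits, Taf1a fell (-0.43 ± 0.10, adjusted p = 0.00298) and Taf1b rose (0.21 ± 0.062, adjusted p = 0.0131) in Hif1a KO cells. Taf1d rose in Hif1a Ahr KO cells (0.31 ± 0.086, adjusted p = 0.0117).

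Of 76 ribosomal protein genes, 2 rose and 3 fell in Hif1a KO cells, none was called in Ahr KO cells, and 2 rose and 2 fell in Hif1a Ahr KO cells. In Hif1a KO cells that is 2.63% and 3.95% of the list, against 17.6% and 17.8% of all genes tested. In Hif1a Ahr KO cells it is 2.63% and 2.63%, against 14.8% and 16.5%. Of all genes in Ahr KO cells, 2.14% rose and 4.78% fell. The family has many processed pseudogenes, so counts of single members are uncertain. Rpl36 fell in both lines (-0.43 ± 0.13, adjusted p = 0.0131 in the Hif1a line and -0.51 ± 0.13, adjusted p = 0.00541 in the Hif1a Ahr line), and Rpl10 rose in both (0.25 ± 0.090, adjusted p = 0.0348 in the Hif1a line and 0.52 ± 0.090, adjusted p = 0.000267 in the Hif1a Ahr line). Under library totals alone 16 of the 76 rose in Hif1a KO cells, beside 4117 of all 16747 genes tested.

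Known Myc targets outside ribosome biogenesis, 39 genes, gave 4 rising and 7 falling in Hif1a KO cells, 1 falling in Ahr KO cells, and 9 rising and 5 falling in Hif1a Ahr KO cells. These are 10.3% and 17.9% of the list in Hif1a KO cells, against 17.6% and 17.8% of all genes. In Hif1a Ahr KO cells they are 23.1% and 12.8%, against 14.8% and 16.5%. In Ahr KO cells 2.56% of the list fell, against 4.78% of all genes. Tfrc, the transferrin receptor and also a known HIF-1 target, fell in both Hif1a lines. It averaged 325 ± 19.2 CPM in Hif1a KO cells and 558 ± 41.9 CPM in Hif1a flox cells (-0.78 ± 0.064, adjusted p = 5.91e-08), and 370.1 ± 1.95 CPM in Hif1a Ahr KO cells and 558 ± 14.7 CPM in Hif1a Ahr flox cells (-0.59 ± 0.064, adjusted p = 1.56e-06). Slc7a5, a leucine transporter, averaged 535 ± 144 CPM in Hif1a Ahr KO cells and 179 ± 41.2 CPM in Hif1a Ahr flox cells (1.58 ± 0.22, adjusted p = 7.81e-05). C1qbp, a mitochondrial protein, rose in the same cells (0.44 ± 0.089, adjusted p = 0.00105), and Paics, a purine synthesis enzyme, rose in Hif1a KO cells (0.26 ± 0.057, adjusted p = 0.0014). Tert, the telomerase catalytic subunit, was the gene called in Ahr KO cells, at 0.488 ± 0.184 CPM in Ahr KO cells and 1.03 ± 0.144 CPM in Ahr flox cells (-1.07 ± 0.30, adjusted p = 0.0348). Under library totals alone the Hif1a KO counts were 12 rising and 4 falling, beside 4117 and 2155 of all 16747 genes. Without Hif1a Ahr flox replicate 3, 14 rose and 1 fell in Hif1a Ahr KO cells, and without Ahr flox replicate 1 none was called in Ahr KO cells.

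Disturbed ribosome assembly is known to stabilise p53, so 12 of its targets and regulators were listed as well. In Hif1a KO cells 8 rose and none fell, against 17.6% of all genes tested rising and 17.8% falling. Among the 8 were Trp53inp1 (1.15 ± 0.10, adjusted p = 1.41e-07), Zmat3 (1.30 ± 0.13, adjusted p = 7.87e-07), Sesn1 (0.69 ± 0.11, adjusted p = 0.000147) and Ccng1 (0.59 ± 0.10, adjusted p = 0.000239), all known p53 targets, and Mdm2 (0.25 ± 0.086, adjusted p = 0.0327), the ligase that degrades p53. Trp53 itself averaged 158 ± 5.49 CPM in Hif1a KO cells and 164 ± 7.33 CPM in Hif1a flox cells (-0.054 ± 0.074, adjusted p = 0.615). In Hif1a Ahr KO cells 5 rose and none fell (6 rose without Hif1a Ahr flox replicate 3), against 14.8% and 16.5% of all genes tested. Zmat3 was at 1.48 ± 0.13, adjusted p = 1.73e-07 and Ccng1 at 0.58 ± 0.10, adjusted p = 0.000342, while Mdm2 was at 0.027 ± 0.086, adjusted p = 0.848. In Ahr KO cells 2 fell, Sesn1 (-0.73 ± 0.12, adjusted p = 0.000905) and Trp53inp1 (-0.49 ± 0.10, adjusted p = 0.00631), and none rose, against 4.78% of all genes falling and 2.14% rising. Without Ahr flox replicate 1, 1 of the 12 fell, beside 357 of 17142 genes tested. No link between these genes and the ribosome biogenesis genes was tested.

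Across the 6 group means, the correlation of Myc with the other 38 members ran from -0.385 to 0.828, with a median of 0.565 and 32 of 38 above 0. Over the 18 libraries as deviations from their group means, it ran from -0.335 to 0.553, with a median of 0.172 and 29 above 0. Heatr1 was at 0.796 over the group means and -0.335 over the deviations. The 6 means come from the same 18 libraries and scaling, and the values are a description. Of 9925 genes with at least 5 CPM on average, the 5 with the highest correlation with Myc over the 6 means were Galnt10 (Pearson r 0.975), Mrpl20 (0.962), Mettl16 (0.955), Hk3 (0.952) and Tmem223 (0.949). None of them is a member.

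Across the 39 members, the log2 change correlated with log coding length at Pearson r = 0.193 in the Hif1a line, 0.456 in the Ahr line and 0.456 in the Hif1a Ahr line. Over 13103 genes tested with a coding length, the same r was 0.0164, 0.00046 and 0.0349 for these lines in turn. These are correlations across genes, which are not independent replicates.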

How the data were processed

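The data are RNA sequencing libraries of 18 samples in 6 groups of 3 biological replicates; the labels do not say whether replicates are separate mice, and p-values measure the spread between these samples only. The authors deposited expected counts per gene, estimated counts that are not normalised; per the submitters' processing notes they used GRCm39 with edgeR 3.17, kallisto 0.4.6 and Trim Galore 0.6.4. The strand-specific mRNA protocol comes from the labels. Of the deposited counts above 0, 65.0% to 67.3% per library were not whole numbers (tolerance 1e-06). The deposited log2 CPM files were not used.

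Symbols were matched to identifiers for 52029 of 56953 genes. The members and lists were chosen with earlier results of these data known. edgeR 4.0.16 in R 4.3.3 was run with TMM scaling, filterByExpr by group and robust quasi-likelihood fits over all 18 libraries (12 residual degrees of freedom, common biological coefficient of variation 0.117). P-values were 2-sided and adjusted over all 16747 genes by Benjamini-Hochberg within each comparison. SE is the log2 change over the root of F. Counts varied 20.0 to 53.0 times more between replicates than counting error gives (chi-square per degree of freedom), so replicate spread, not depth, limits precision. All 39 members may be named. Other genes named are up to 4 called genes per list and comparison by adjusted p, plus Max, Mxd1, Mxd4, Mxi1, Mnt, Polr1c, Polr1d, Trp53 and Mdm2; the cell type markers, Pgk1 and the Hif1a KO and Hif1a Ahr KO values of Mxd3 were added after their values were seen. Scripts were tested on simulated data.

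Same-numbered KO and flox libraries deviated together in the Hif1a line (correlation of deviations 0.296 to 0.530) and the Ahr line (0.333 to 0.534), so the numbers were taken as pairs there. The main fit, which gave all calls unless another setting is named, did not use these pairs. In the Hif1a Ahr line 1 pair was at 0.0671, under the 0.1 required. The replicate block was fitted in every line, so its results for the Hif1a Ahr line rest on numbers not taken as pairs. The alternatives were DESeq2 1.42.0 (counts rounded), DESeq2 size factors in edgeR, library totals alone, limma 3.58.1 voom, no filter, a mean of at least 5 CPM, each line alone, each library left out, the replicate block and, chosen after seeing the data, the Ahr line without replicate 1 of both groups. Exon and coding lengths and promoters come from GENCODE M21 and RefSeq GRCm38.p6, an older build than the counts.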

Additional observations from a re-analysis of the deposited data

Results flagged for a closer look

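For 17 values the KO effect differed between lines in edgeR's test of the difference (adjusted p under 0.05). The Hif1a effect minus the Ahr effect was -0.65 for Mybbp1a, -0.65 for Nop16, -0.58 for Polr1b, -0.52 for Imp4, -0.51 for Rrs1, -0.45 for Noc2l, -0.41 for Bop1, -0.40 for Nolc1, -0.37 for Pes1, -0.35 for Nop14 and -0.30 for Ubtf, on the log2 scale. These 11 of 39 members are near the share of all genes called, 32.3%, and 6 of the calls held in each alternative. The Hif1a Ahr effect minus the Hif1a effect was 0.49 for Utp4, 0.49 for Polr1b, 0.46 for Mybbp1a, 0.43 for Nat10, 0.41 for Heatr1 and 0.33 for Polr1a. These are 6 of 39 members, against 9.63% of all genes called, and none of the 6 calls held in each alternative.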

How the results depend on the processing

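Of 336 recomputed counts and Myc values, 292 stayed on the same side of their threshold or within 1.5 times, 39 counts moved, 1 Myc value became called and 4 changed sign. The cause was not tested. The Hif1a change of Myc was 0.088 under library totals alone. With single libraries left out it ran from -0.073 to 0.083, never called, and was above 0 without replicate 1 (0.025) or replicate 2 (0.0085) of Hif1a flox or replicate 3 of Hif1a KO (0.083). With libraries left out in turn, the Ahr change of Myc ran from 0.10 to 0.25 and the Hif1a Ahr change from 0.04 to 0.19. With the replicate block the Ahr change of Myc was 0.19 and called, so 1 member rose there, beside 1034 of 16747 genes. The 6 Ahr libraries alone gave 2 rising, beside 703 of 15567 genes. Without replicate 1 of both Ahr groups, chosen after seeing the data, the change of Myc was 0.18. Leaving out single libraries gave, in Hif1a KO cells, 0 to 1 rising and 6 to 15 falling, and in Hif1a Ahr KO cells 3 to 13 rising and 1 to 4 falling. It gave 8 to 15 differences between the Hif1a and Ahr effects, 0 to 13 between the Hif1a Ahr and Hif1a effects and 0 to 3 between the Hif1a Ahr and Ahr effects. Library totals alone gave 2 rising and 6 falling in Hif1a KO cells, 1 falling in Hif1a Ahr KO cells, and 6, 2 and 2 differences in that order. Calls over all genes were 65.6% higher in the Hif1a line under totals and 49.8% with TMM. A mean of at least 5 CPM gave 17 differences between the Hif1a and Ahr effects and 2 between the Hif1a Ahr and Ahr effects, for which DESeq2 also gave 2. The Hif1a Ahr libraries alone gave 2 rising and 0 falling, beside 1544 and 1556 of 15488 genes. The replicate block gave 11 differences between the Hif1a Ahr and Hif1a effects and 3 between the Hif1a Ahr and Ahr effects. In Hif1a KO cells it also called Nolc1, Utp4 and Nip7, giving 14 falling, and in Hif1a Ahr KO cells Wdr12. The numbers were not taken as pairs in the Hif1a Ahr line. No paired analysis of the flox groups was made. Where a left-out library leaves 2 in a group, the spread is shared across groups.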
